A study of Mus musculus with 9 samples.

Results

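The comparison described here sets the colon of mice that wore a hindlimb cast against the colon of uncast mice, both on a normal diet. Its members were all libraries with those labels, 6 of the 9 in the series: 3 of control mice (CT) and 3 of immobilized mice (IM). All mice were wild type, and the IM mice wore the cast, a plastic tube held with tape and fitted under anesthesia, for 10 days. The labels do not say whether CT mice were anesthetized or handled in the same way, and they give no strain, age or sex. The other 3 libraries (IM-HYA) came from mice with the same cast and a diet with HYA, an abbreviation that the labels leave unexplained, and their values are given only beside those of CT and IM. The labels give replicate numbers without tying them to separate animals. The p-values therefore describe variation among libraries, part of which may be technical.

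Cast immobilization is a standard way of taking load off a limb, and its muscle loses mass over days. The cast does not touch the colon, which changes along its length: posterior Hox genes such as Hoxd13 and Hoxb13 mark its distal end, more anterior Hox genes mark proximal segments, and goblet cells, hormone cells and absorptive cells occur in different proportions. A piece of colon can also carry attached fat, lymphoid tissue, pancreas or, near the pelvis, tissue of the male reproductive glands.

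Library totals ran from 19638401 to 37820345 counts in CT and IM, and no pair of replicates was alike within sampling error (chi-square of 41.9 or more per gene). Ddx3y, a Y-linked gene, measured 20.2 CPM or more and Xist 0.165 CPM or less in every library. Levels are given as CPM, read counts per library size after scaling by the trimmed mean of M values. In bulk tissue, fewer cells of a type and less RNA per cell cannot be told apart.

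The libraries differed in the tissue they carried, and CT 2, IM 1 and IM 3 stood apart in different ways. A list of 29 pancreatic genes, among them the chymotrypsinogen gene Ctrb1, took 33.5% of the counts of CT 2, against 0.153% to 0.585% in the other libraries of the 2 groups. Ctrb1 measured 0.212, 125900 and 16.6 CPM across CT and 41.4, 0.746 and 1514 across IM. The gene was therefore far above the rest in CT 2 and next highest in IM 3. Over all deposited genes, those with at least 10 CPM in 1 library and at least 8-fold above the other 5 were counted. They numbered 91 in CT 2 (46.6% of its counts), 90 in IM 3 (1.34%), 13 in IM 1 (1.43%), 4 in CT 1, 2 in IM 2 and 0 in CT 3. The filter on low counts kept 12 of the 13 in IM 1, 29 of those in CT 2 and 2 of those in IM 3 out of the test. In IM 3 the tested ones were led by the desaturase gene Scd1, the hemoglobin genes Hba-a1 and Hba-a2 and the leukocyte genes Coro1a and Laptm5. In IM 2 they were the protocadherin gene Pcdhga10 and the homeobox gene Six2.

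Genes of male accessory glands, a list of 14 drawn up after values were seen, marked CT 1 and IM 1. The summed level of the list was 934 CPM in CT 1 and 10580 in IM 1, against 0.615 and 1.48 in CT 2 and CT 3 and 0.218 and 0 in IM 2 and IM 3. The kinds of gene differed between them. The prostate gene Pbsn was at 464 CPM in CT 1 and 26.1 in IM 1, and Tgm4, also of the prostate, was at 411 and 51.6. The seminal vesicle genes Svs5 and Svs4 measured 3749 and 2528 CPM in IM 1, and in CT 1 they measured 0 and 0.141. CT 1 and IM 1 were also the libraries with the highest Hoxd13, at 105 and 99.5 CPM. Pbsn was also at 29.9 CPM in IM-HYA 1 and 1083 in IM-HYA 3, and at 0 in IM-HYA 2. The part of these glands in the comparison was not tested beyond leaving out CT 1 and IM 1 together, where G530011O06Rik and Snrpn were called.

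Hox genes that mark position along the colon were unevenly represented. Hoxd13, the most posterior gene of its cluster, measured 105, 33.6 and 4.62 CPM across CT and 99.5, 0.591 and 0 across IM. Hoxb13, also distal, measured 410, 336 and 210 CPM across CT and 324, 39.7 and 0.140 across IM. IM 2 and IM 3 thus lay below every CT library for both genes, and IM 1 lay within the CT range. Not all distal Hox genes followed these 2. Of 9 tested, 4 were fitted above 0 and 5 below, and 0 had an unadjusted edgeR p under 0.05 in either direction. Anterior Hox genes were higher in every IM library, with mean log2 CPM of 1.11, 0.97 and 0.95 across CT and 1.39, 2.84 and 3.83 across IM. Of 14 tested, 8 were higher at an unadjusted p under 0.05 (4.83% over all genes). The median log2 fold change of the list was 2.29, against 0.04 over all genes tested. Without IM 3 that median was 1.02.

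Fat and lymphocyte markers were highest in IM 3 and next highest in IM 1. The summed level of 18 adipocyte markers ran from 403 to 710 CPM across CT and was 1327, 598 and 5084 in IM. IM 2 therefore lay inside the CT range. All 18 had a read in every CT library. For 24 T and NK cell markers the sum ran from 23.9 to 29.0 CPM across CT and was 51.1, 22.2 and 346 in IM, with 7 of them (among them Cd3g, Cd8a and Prf1) lacking a read in at least 1 CT library. For 20 B cell markers it ran from 176 to 209 CPM across CT and was 403, 123 and 1106 in IM. Muc2, the main mucin of goblet cells, measured 804, 1624 and 5122 CPM across CT and 922, 12850 and 10700 across IM, so IM 1 again stood with CT 1. Reads of the 18S pseudogene Rn18s-rs5 took 5.42%, 8.76% and 23.2% of CT counts and 2.88%, 11.3% and 16.4% of IM counts.

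**Figure D1:**
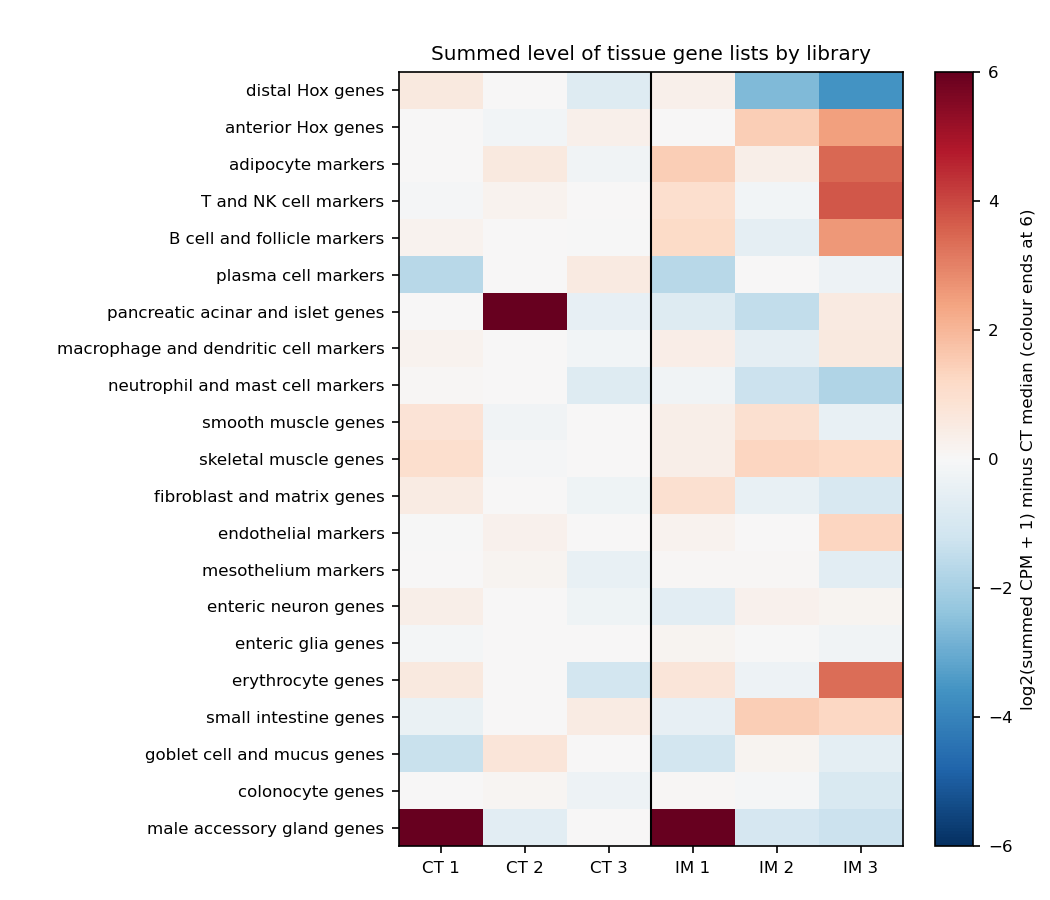
Summed level of 20 tissue gene lists and the list of male accessory gland genes in the 6 libraries (columns), as log2(summed CPM + 1) minus the median of the 3 CT libraries; red is higher, blue lower, and colours end at 6. CT 2 stands out for pancreatic genes, CT 1 and IM 1 for accessory gland genes and IM 3 for fat, lymphocyte and erythrocyte genes. IM 2 and IM 3 stand out for a low sum of distal Hox genes, whose members did not all go the same way.

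The long noncoding RNA gene G530011O06Rik (Entrez 654820) fell in the colon of cast mice and was the only gene that passed the test. It measured 18.9, 21.1 and 20.0 CPM across CT and 1.01, 0.777 and 0.698 across IM, from 800, 309 and 350 reads and from 45, 25 and 15 reads. Every CT library lay far above every IM library, and neither group spread widely. The log2 fold change was −4.58 (SE 0.33, edgeR's quasi-likelihood test, Benjamini-Hochberg adjusted p = 0.00237 over 18414 genes). The IM-HYA libraries measured 0.499, 0.937 and 0.871 CPM. At the high Hoxd13 level, IM 1 against CT 1, the log2 difference was −3.68, and at the low level, the mean of IM 2 and IM 3 against CT 3, it was −4.05, both on log2(CPM + 0.5). IM 2 and IM 3 had less Hoxd13 than CT 3, so the second value is not matched for it. The log2 fold change was −4.65 with the adipocyte level as a covariate and −4.42 without CT 2 and IM 3 together, and the call ended in both (edgeR adjusted p = 0.131 and 0.102).

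G530011O06Rik lies on the minus strand of chromosome X, 169975043 to 169978917 (GRCm38), within the span of the plus-strand gene Mid1. Mid1 encodes a ubiquitin ligase that binds microtubules, and in laboratory mice it spans the boundary of the pseudoautosomal region, the stretch in which X and Y recombine. RefSeq gives G530011O06Rik a start on both sex chromosomes, and the 300-base windows around the start on X and on Y were identical at 292 of 298 aligned bases. The deposited table has 1 entry for the gene, so reads of the X and Y copies cannot be told apart here. The X window (chrX:169978868-169979167, minus strand, GRCm38.p6, RefSeq), 250 bases before the start to 50 after it, is shown because it belongs to the called gene:
G530011O06Rik: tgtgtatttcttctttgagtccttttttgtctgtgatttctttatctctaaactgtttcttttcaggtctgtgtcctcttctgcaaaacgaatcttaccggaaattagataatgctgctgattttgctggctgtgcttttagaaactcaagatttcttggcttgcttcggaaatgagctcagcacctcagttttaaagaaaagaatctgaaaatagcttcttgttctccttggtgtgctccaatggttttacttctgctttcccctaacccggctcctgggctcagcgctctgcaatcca

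None of the neighbouring genes named here passed the test. Mid1 measured 5.35, 6.90 and 5.02 CPM across CT and 6.85, 5.16 and 4.60 across IM, overlapping groups (log2 fold change −0.05, edgeR adjusted p = 0.963). Hccs, for the enzyme that attaches heme to cytochrome c, measured 26.5, 13.7 and 24.8 CPM across CT and 16.8, 22.1 and 15.5 across IM. Arhgap6 measured 7.38, 4.58 and 6.56 CPM across CT and 3.94, 3.73 and 3.16 across IM. The Arhgap6 groups did not overlap, but the difference did not pass (log2 fold change −0.77, edgeR adjusted p = 0.621). Erdr1, on the far side of Mid1, measured 25.5, 48.7 and 32.6 CPM across CT and 24.9, 66.7 and 25.7 across IM. Whether counting used the strand is not stated, so reads of Mid1 and of G530011O06Rik within it cannot be separated with certainty.

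**Figure D2:**
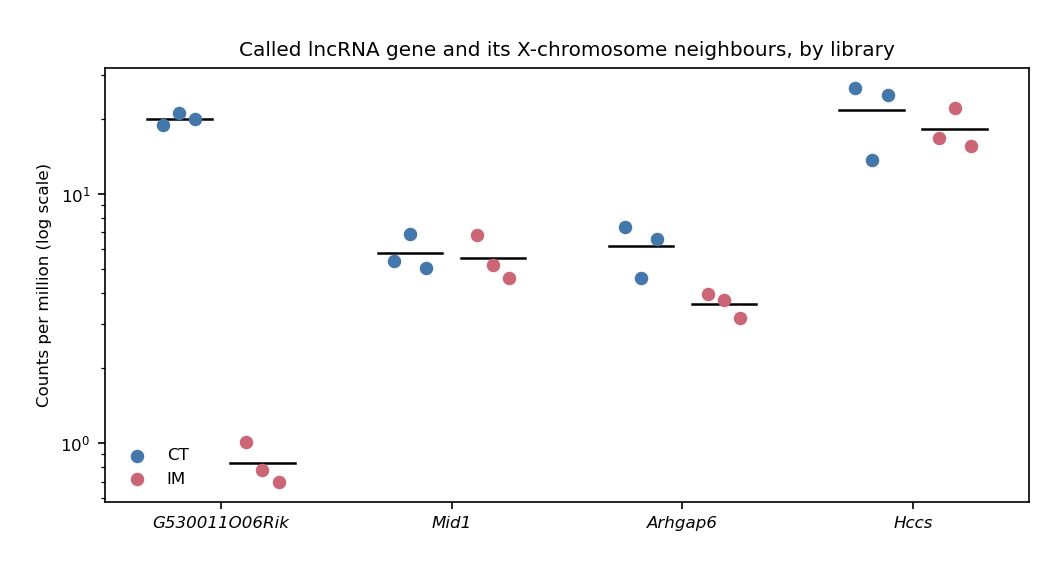
CPM (log axis) of G530011O06Rik and its neighbours Mid1, Arhgap6 and Hccs, with 1 point per library, CT in blue and IM in red, and a bar at each group mean. The groups of G530011O06Rik lie apart, at 18.9 to 21.1 and 0.698 to 1.01 CPM, while those of Mid1 and Hccs overlap.

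In all, edgeR called 0 genes higher (0%) and 1 lower (0.00543%) of 18414, the latter being G530011O06Rik. An unadjusted p under 0.05 was reached by 890 genes that were higher (4.83%) and 572 that were lower (3.11%). All IM libraries lay above all CT libraries for 815 genes (4.43%) and below them for 846 (4.59%). DESeq2 called 52 genes higher (0.282%) and 13 lower (0.0706%), and limma-voom called 0 and 1. Of the 890 higher genes, IM 3 was the highest IM library for 690 (77.5%), IM 1 for 149 (16.7%) and IM 2 for 51 (5.73%). Of the 572 lower genes, IM 3 was the lowest IM library for 380 (66.4%). Without IM 3, 319 of the 890 and 258 of the 572 kept an unadjusted p under 0.05. Without IM 1 the counts were 2039 higher and 1772 lower, and without IM 2 they were 1462 and 742. With the adipocyte level as a covariate they were 148 and 185. The genes with an unadjusted p under 0.05 in all 7 fits, the fit of all libraries and the 6 that left out 1 CT or IM library, numbered 162 higher (0.88%) and 119 lower (0.646%).

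**Figure D3:**
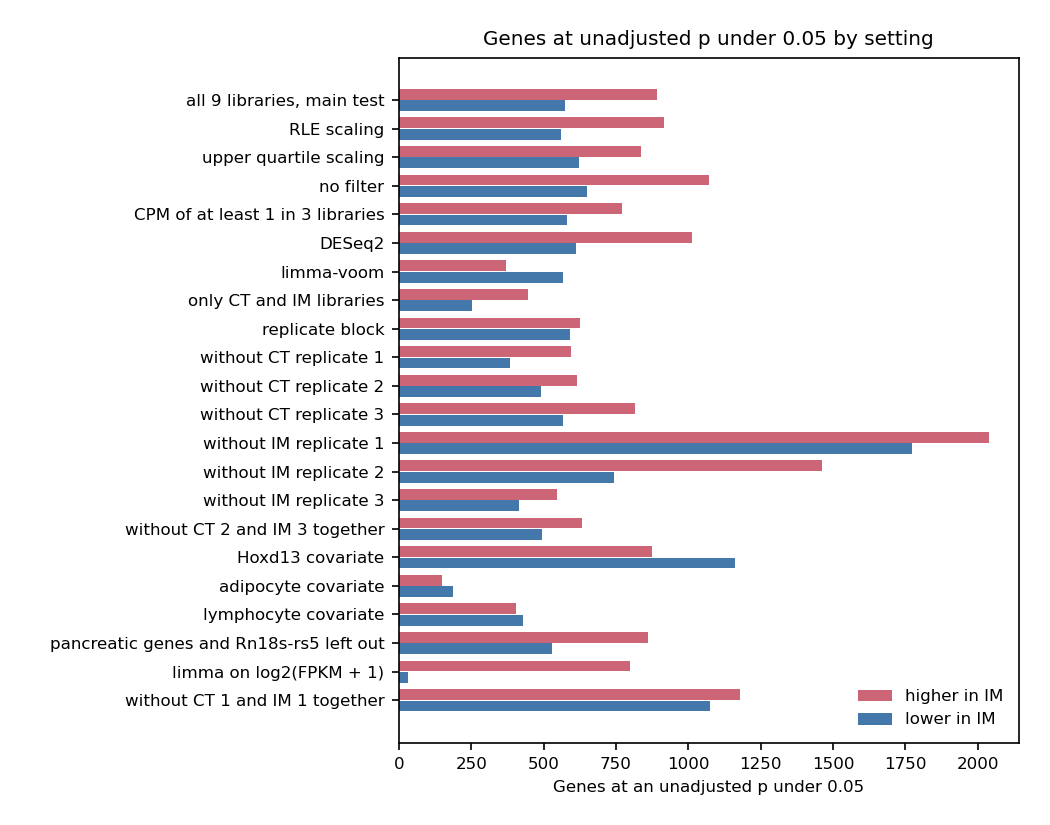
Number of genes at an unadjusted p under 0.05, higher (red) and lower (blue) in IM, for the main test and for each other setting. Higher genes run from 148 with the adipocyte covariate to 2039 without IM 1, and lower genes from 31 with limma on log2(FPKM + 1) to 1772 without IM 1.

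Libraries were also compared at the nearest levels of Hoxd13, with IM 1 set against CT 1 and the mean of IM 2 and IM 3 against CT 3. The second pairing was unequal, with Hoxd13 at 4.62 CPM in CT 3 and at 0.591 and 0 in IM 2 and IM 3. Hoxb13 was at 210 CPM in CT 3 and at 39.7 and 0.140 in IM 2 and IM 3. Position along the colon was therefore not matched in that pairing. Both libraries of the first pairing hold accessory gland genes, in unequal amounts. Each pairing rests on 1 CT library and has no test. On log2(CPM + 0.5), 173 genes were 2-fold or more higher in both pairings (0.94%) and 59 were 2-fold or more lower (0.32%). Those that also kept an unadjusted p under 0.05 in all 7 fits and whose groups did not overlap numbered 43 higher (0.234%) and 21 lower (0.114%). The 43 held, among others, fat genes (Cfd, Cidea, Cidec, Plin4, Retn, Gpd1, Scd1, Fasn), T cell genes (Cd3e, Cd8a), Hox genes (Hoxb8, Hoxc8, Hoxd3) and also Hsph1, Fkbp5 and Pcdhga3. The 21 held, among others, G530011O06Rik, Tmem174, Vsig8, Gng10, Rpl39, Nccrp1 and Id1, which encodes an inhibitor of helix-loop-helix transcription factors.

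The leading genes that were higher in IM fell into visibly different patterns across libraries, and none passed the test (edgeR adjusted p = 0.621 for Hsph1, Fkbp5, Foxj3, Gba2, Ces1d and Xlr3b). Some varied less across the IM libraries than others. Hsph1, a chaperone of the Hsp110 family, measured 15.9, 15.4 and 16.9 CPM across CT and 53.1, 65.1 and 39.0 across IM, with log2 fold change 1.70 (SE 0.29). Fkbp5, a co-chaperone of the glucocorticoid receptor and a well-known target of it, measured 31.3, 29.9 and 39.5 CPM across CT and 64.9, 72.3 and 115 across IM, 1.33 (SE 0.29) on the log2 scale. Foxj3, for a forkhead transcription factor, measured 25.3, 19.1 and 25.2 CPM across CT and 43.0, 39.6 and 37.4 across IM. IM 1, IM 2 and IM 3 lay above all CT libraries for each of these genes, which the rule that picked leading genes required. IM 3, the library with the most fat and lymphocyte transcripts, was the highest for Fkbp5 and not for Hsph1 or Foxj3. Gba2, a glucosylceramidase gene, measured 4.24, 4.30 and 3.71 CPM across CT and 9.17, 7.46 and 8.19 across IM. Ces1d, a carboxylesterase gene, measured 29.2, 24.4 and 21.7 CPM across CT and 45.6, 41.4 and 54.8 across IM. Xlr3b, an X-linked gene of a family of near-identical copies, measured 0.495, 0.137 and 0.628 CPM across CT and 2.07, 1.96 and 1.91 across IM. Reads of Xlr3b may be shared with its copies. With the adipocyte level as a covariate the log2 fold change was 1.88 for Hsph1, 1.003 for Fkbp5 and 0.88 for Foxj3, and with Hoxd13 as a covariate it was 1.63, 1.11 and 0.81.

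Other leading genes tracked IM 3 or the pair IM 2 and IM 3. Thrsp, which promotes lipogenesis, measured 2.78, 5.12 and 1.83 CPM across CT and 27.5, 10.4 and 256 across IM, so IM 3 was above IM 2 and IM 1 by a wide margin. Cidea, for a lipid droplet protein, measured 0.613, 0.137 and 0.399 CPM across CT and 2.23, 1.52 and 6.05 across IM. Cyp4b1, a cytochrome P450 gene, measured 1.49, 2.05 and 1.43 CPM across CT and 6.49, 8.99 and 26.6 across IM. The order IM 3, IM 1, IM 2 of Thrsp and Cidea is the order of the adipocyte markers. Cidea belongs to those markers, so its order is not independent of theirs. Nts, which encodes the gut peptide neurotensin, measured 0.141, 0 and 0.171 CPM across CT and 0.180, 14.9 and 37.1 across IM. Hoxb8 measured 0.707, 0.957 and 0.456 CPM across CT and 2.03, 20.7 and 56.6 across IM. For Nts, IM 1 (0.180) stood close to CT 3 (0.171), and Nts and Hoxb8 were high in the 2 IM libraries with little Hoxd13. In CT 3 and IM-HYA 2, with Hoxd13 at 4.62 and 3.65 CPM, Nts was at 0.171 and 0.319 and Hoxb8 at 0.456 and 2.15. The log2 fold change of Nts was 7.23 (SE 1.63) and that of Hoxb8 5.22 (SE 1.204), and with Hoxd13 as a covariate they were 3.13 and 2.29. That of Thrsp was 4.92 (SE 1.12), and 0.94 with the adipocyte level as a covariate. Cidea stood at 3.02 (SE 0.69), and at 1.67 with that covariate, which includes Cidea itself. None of these genes passed in either fit (edgeR adjusted p = 0.621 for each in the fit without covariates).

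Pcdhga3, a cell adhesion gene of the clustered protocadherins, measured 0.189, 0 and 0 CPM across CT and 4.17, 7.37 and 8.19 across IM, from 8 reads in CT and 598 in IM. All IM libraries lay above all CT libraries by a wide margin, with log2 fold change 6.23 (SE 1.11) and an adjusted p of 0.621 in edgeR. The IM-HYA libraries measured 0.519, 0.219 and 0.895 CPM. Variable exons of this cluster are spliced to shared constant exons, so the assignment of reads to single members is uncertain. Of 21 tested members, 4 were higher at an unadjusted p under 0.05 (4.83% over all genes), and the list's median log2 fold change was 0.64 and 0.00 without IM 1. Pcdhga1 measured 0.0943, 0.478 and 0.228 CPM across CT and 2.32, 0.280 and 7.77 across IM, so IM 2 lay within the CT range. Pcdhgb1 measured 0.189, 0 and 0.628 CPM across CT and 5.22, 0.466 and 5.12 across IM, again with IM 2 inside.

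Saa3, Btnl6, Crybg2, Id1 and Ighm did not pass either (edgeR adjusted p = 0.621 for each). Saa3, an acute phase gene of the serum amyloid A family, gave 0, 0 and 0.513 CPM across CT and 1.10, 5.57 and 21.4 across IM, from 9 and 687 reads. Btnl6, of a butyrophilin-like family that holds similar copies, gave 4.01, 4.24 and 7.02 CPM across CT and 27.5, 8.80 and 15.1 across IM, with IM 1 highest. Crybg2 gave 20.2, 18.3 and 17.9 CPM across CT and 29.8, 37.2 and 40.0 across IM. Saa3 was thus highest in IM 3 and IM 2, and Btnl6 in IM 1 and IM 3. Id1 gave 422, 246 and 256 CPM across CT and 153, 161 and 63.2 across IM. Ighm, the heavy chain of the antibody IgM, gave 21.1, 22.3 and 15.5 CPM across CT and 154, 7.15 and 162 across IM, so IM 2 lay below every CT library while the others lay above.

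**Figure D4:**
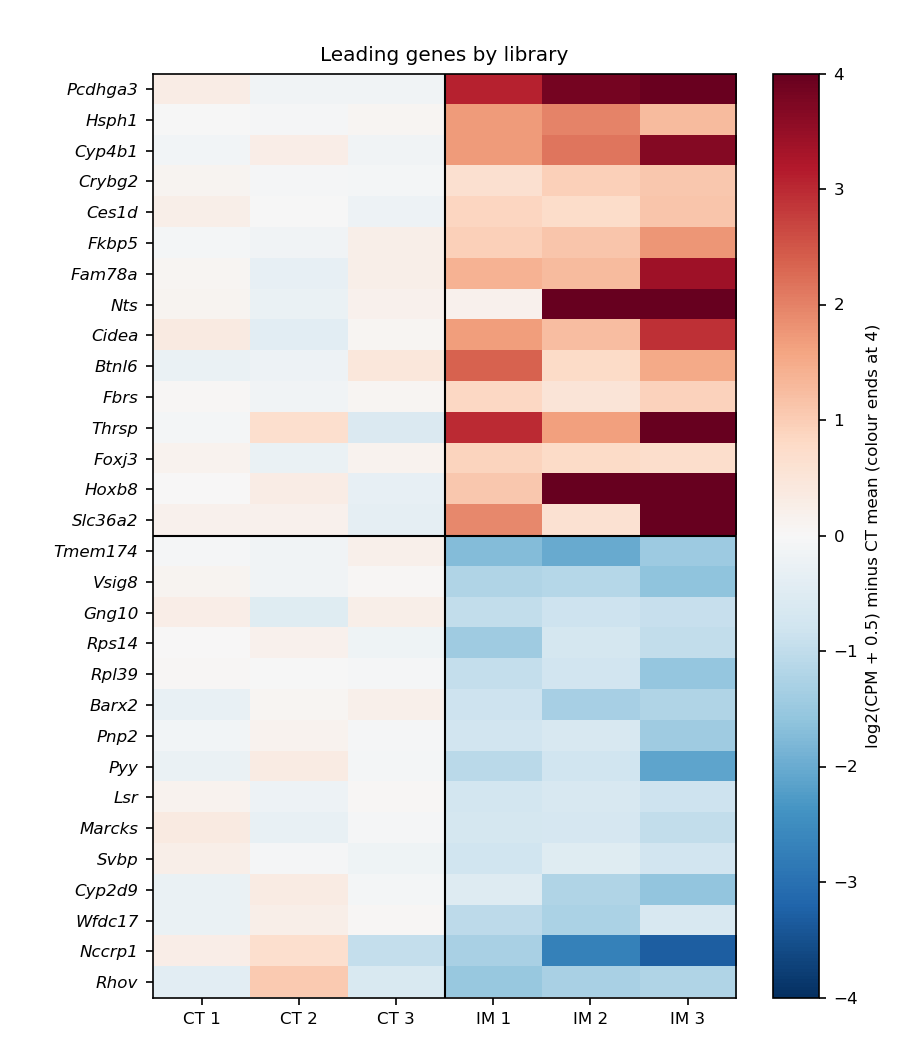
The 15 leading genes in each direction (rows) in the 6 libraries (columns), as log2(CPM + 0.5) minus the CT mean, red higher and blue lower, with colours ending at 4. Hsph1, Foxj3 and Fbrs are even across the IM libraries, Nts and Hoxb8 are high in IM 2 and IM 3, and Thrsp and Slc36a2 are strongest in IM 3.

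Among leading genes that were lower in IM, Gng10 and Lsr varied little across its libraries and Pyy more. None of these passed (edgeR adjusted p = 0.621 for Tmem174, Vsig8, Gng10, Pyy, Lsr, Marcks and Barx2). Tmem174 measured 3.28, 3.01 and 3.94 CPM across CT and 0.676, 0.466 and 0.930 across IM, with log2 fold change −2.30 (SE 0.40). Vsig8 measured 4.62, 3.83 and 4.39 CPM across CT and 1.58, 1.68 and 1.07 across IM. Gng10, a G protein gamma subunit gene, measured 29.4, 17.6 and 28.8 CPM across CT and 12.3, 13.7 and 12.8 across IM. In each of these genes the highest IM library stayed below the lowest CT library, which the rule that picked leading genes required. Pyy, for the L cell hormone peptide YY, measured 162, 248 and 187 CPM across CT and 92.1, 112 and 45.3 across IM, a log2 fold change of −1.26 (SE 0.31). Lsr, for a lipoprotein receptor found at tricellular junctions, measured 333, 257 and 312 CPM across CT and 180, 192 and 168 across IM. Marcks, for a substrate of protein kinase C, measured 191, 121 and 145 CPM across CT and 92.6, 93.2 and 75.1 across IM. IM 3 was lowest for Pyy, Lsr and Marcks, whose groups stayed apart by the same rule. Barx2, a homeobox gene, measured 4.08, 5.40 and 5.99 CPM across CT and 2.64, 1.71 and 1.95 across IM.

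Ribosomal protein genes were lower in IM as a list. Of 42 tested members, 16 were lower and 0 were higher at an unadjusted p under 0.05 (3.11% and 4.83% over all genes). For 13 members the groups did not overlap, with IM the lower (4.59% over all genes), and 41 were fitted below 0. The list's median log2 fold change was −0.40 against 0.04 over all genes, and it lay between −0.56 and −0.31 when 1 CT or IM library was left out. The mean log2 CPM of the list was 9.97, 10.25 and 9.78 across CT and 9.16, 9.70 and 9.57 across IM. IM 1, with the least Rn18s-rs5, was the lowest of the 6, and every IM library was below every CT library. Rps14, of the small subunit, measured 1932, 2175 and 1706 CPM across CT and 718, 1172 and 980 across IM. Rpl39, of the large subunit, measured 315, 298 and 296 CPM across CT and 156, 178 and 104 across IM, and Rpl32 measured 779, 1116 and 608 across CT and 430, 499 and 325 across IM. On the authors' FPKM values the list median was 0.01, where the median over all genes was 0.32, so the list also lay below the median of all genes there. Many processed pseudogenes resemble ribosomal protein genes, so the split of reads among copies is uncertain.

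Heat shock and chaperone genes leaned the other way. Of 23 tested, 19 were fitted above 0, and the median log2 fold change was 0.28, between 0.23 and 0.43 with 1 library left out. An unadjusted p under 0.05 was reached by 4 that were higher and 0 that were lower (4.83% and 3.11% over all genes). Besides Hsph1 these were Stip1, a co-chaperone that links Hsp70 and Hsp90, with 60.9, 51.4 and 50.9 CPM across CT and 80.6, 101 and 116 across IM. Chordc1, a co-chaperone of Hsp90, measured 43.4, 32.8 and 51.2 CPM across CT and 41.4, 77.8 and 105 across IM, so IM 1 lay within the CT range. Hsp90aa1, the inducible Hsp90 gene, measured 175, 147 and 206 CPM across CT and 215, 269 and 228 across IM, with an unadjusted p of 0.0499. Heat shock factors bind inverted GAA units, and the letters GAANNTTC and TTCNNGAA were searched in the promoter windows of RefSeq (each reads the same on both strands, and matches may overlap). A match to either was found for 12 of the 19 heat shock genes with a window (63.2%) and for 14.4% of the 13193 tested genes with one. The list holds known heat shock genes, so this share describes the list, and a link to the cast was not tested. Hspd1 and Hspe1, each with a window of 3 matches, were not among the 4 higher genes, and Hsp90aa1 had no window. The windows of Hsph1 (chr5:149636287-149636586, minus strand, GRCm38.p6) and Chordc1 (chr9:18292017-18292316, plus strand) are shown because both hold several matches, in capitals, while that of Stip1 holds 0:
Hsph1: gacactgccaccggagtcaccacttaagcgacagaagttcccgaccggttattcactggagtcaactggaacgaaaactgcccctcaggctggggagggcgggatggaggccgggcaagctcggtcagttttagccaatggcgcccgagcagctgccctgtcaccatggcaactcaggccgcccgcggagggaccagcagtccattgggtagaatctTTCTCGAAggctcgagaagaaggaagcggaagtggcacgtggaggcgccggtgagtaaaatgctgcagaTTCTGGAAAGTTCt
Chordc1: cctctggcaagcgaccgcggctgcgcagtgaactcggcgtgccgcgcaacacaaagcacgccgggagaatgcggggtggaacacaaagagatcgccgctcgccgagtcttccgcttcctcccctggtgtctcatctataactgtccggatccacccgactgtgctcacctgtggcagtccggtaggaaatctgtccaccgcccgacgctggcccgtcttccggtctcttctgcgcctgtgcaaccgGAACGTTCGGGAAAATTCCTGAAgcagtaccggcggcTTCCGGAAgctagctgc

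Glucocorticoid-responsive and clock genes held members in both patterns. Of 21 tested genes of the glucocorticoid receptor and its targets, 6 were higher and 0 were lower at an unadjusted p under 0.05 (4.83% and 3.11% over all genes), with a list median of 0.15 and −0.08 without IM 1. Pdk4, which restrains pyruvate dehydrogenase, measured 7.52, 2.87 and 7.13 CPM across CT and 10.8, 19.0 and 35.99 across IM. Zbtb16 measured 5.52, 2.94 and 4.34 CPM across CT and 6.69, 5.41 and 28.4 across IM, and was high in IM 3 alone. Of 21 clock genes, 5 were higher and 2 lower at that threshold, with a list median of 0.38 that was 0.21 with the adipocyte covariate. The shares over all genes are again 4.83% and 3.11%. Hlf, a clock output factor, measured 12.7, 5.602 and 8.27 CPM across CT and 19.9, 17.3 and 13.95 across IM, and Tef, of the same family, 109, 84.0 and 70.9 across CT and 132, 114 and 179 across IM. Npas2, of the activating arm, measured 16.1, 9.50 and 22.9 CPM across CT and 9.93, 8.96 and 6.93 across IM, so the ranges overlapped. The labels give no time of day for tissue collection.

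Lipid synthesis genes and adipocyte markers were mostly fitted higher in IM, most of all in IM 3, and none passed the test. Of 24 tested genes of fatty acid and triglyceride synthesis, 11 were higher and 0 were lower at an unadjusted p under 0.05 (4.83% and 3.11% over all genes), 7 had all IM libraries above all CT libraries (4.43% over all genes), and 19 were fitted above 0. The list's mean log2 CPM was 4.71, 4.95 and 4.71 across CT and 5.39, 5.13 and 6.60 across IM. Its median log2 fold change was 0.93, 0.28 without IM 3 and −0.02 with the adipocyte level as a covariate. Scd1 measured 59.3, 55.7 and 44.5 CPM across CT and 250, 78.1 and 3192 across IM, and its direction turned with that covariate. Dgat2, which completes triglycerides, measured 16.2, 23.0 and 12.8 CPM across CT and 55.7, 23.2 and 55.8 across IM, with IM 2 barely above CT 2. Of 18 adipocyte markers, 14 were higher at an unadjusted p under 0.05 and 17 were fitted above 0, led by Slc36a2, Gpd1, Plin4 and Cidea. The median of the markers, 2.43, was 1.055 without IM 3 and −0.059 with the adipocyte covariate, which is their own level. Cfd, the fat-derived complement factor D, measured 69.8, 117 and 34.3 CPM across CT and 348, 127 and 1802 across IM. Of 26 genes of fatty acid oxidation, 2 were higher and 0 lower, with a median of 0.10. Ppara, the receptor that drives such genes, measured 7.12, 8.27 and 13.1 CPM across CT and 11.6, 29.5 and 78.3 across IM. The part of attached fat in these values was not tested apart from the covariate.

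Xenobiotic metabolism genes were higher as a list in all 3 IM libraries. Of 42 tested, 14 were higher and 2 were lower at an unadjusted p under 0.05, against 4.83% and 3.11% over all genes. All IM libraries lay above all CT libraries for 8 and below them for 2, against 4.43% and 4.59% over all genes. The mean log2 CPM of the list was 4.65, 4.87 and 4.68 across CT and 5.20, 5.35 and 5.59 across IM, so every IM library was above every CT library. Its median log2 fold change was 0.61, between 0.42 and 0.69 with 1 library left out, 0.44 with the adipocyte covariate and 0.35 with the Hoxd13 covariate. Aldh1a1, which makes retinoic acid, measured 51.0, 55.5 and 75.4 CPM across CT and 82.8, 296 and 475 across IM. Cyp2e1, another P450 gene, measured 14.9, 17.8 and 4.79 CPM across CT and 140, 21.3 and 427 across IM. Aldh1a1 followed IM 2 and IM 3, while Cyp2e1 followed IM 3 and IM 1. Cyp2d9, also a P450 gene, measured 35.6, 54.9 and 41.3 CPM across CT and 30.2, 18.5 and 14.2 across IM.

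T and NK cell and B cell markers were highest in IM 3 and next highest in IM 1, while interferon, cytokine and plasma cell genes had other orders, and no immune gene passed the test. At an unadjusted p under 0.05, the threshold of the list counts here, 4.83% of all genes were higher and 3.11% lower. Of 21 tested T and NK cell markers, 13 were higher at that threshold and 21 were fitted above 0. Their median of 2.74 was 0.65 without IM 3. Cd3e, of the T cell receptor complex, measured 0.424, 0.615 and 0.285 CPM across CT and 2.23, 0.995 and 15.5 across IM, and Cd8a 0.259, 0 and 0.285 across CT and 2.23, 0.342 and 17.4 across IM. Of 20 B cell markers, 4 were higher, and Cd79a, of the B cell receptor, measured 20.5, 14.6 and 17.8 CPM across CT and 25.6, 5.597 and 257 across IM. The fold change of Cd79a turned below 0 without IM 3. Of 20 antigen presentation genes, 2 were higher (Nlrc5 and Ciita), and the list median of 0.49 was −0.33 without IM 3. Of 34 interferon response genes, 4 were higher and 0 lower, 5 had all IM libraries above all CT libraries (4.43% over all genes) and 28 were fitted above 0. The interferon list measured 2.46, 2.56 and 2.73 mean log2 CPM across CT and 2.77, 2.89 and 2.94 across IM, and its median of 0.30 stayed between 0.25 and 0.42 with 1 library left out and was 0.15 with the Hoxd13 covariate. Irf7, which drives interferon production, measured 30.7, 30.5 and 27.95 CPM across CT and 34.7, 66.4 and 49.0 across IM. The summed level of 11 plasma cell markers was 1794, 5626 and 8240 CPM across CT and 1780, 5763 and 4584 across IM, overlapping groups. Of 16 tested inflammatory cytokine and chemokine genes, 0 were higher and 1 was lower, Ccl20, at an unadjusted p under 0.05. The list's mean log2 CPM was 2.12, 1.49 and 1.44 across CT and 1.65, 0.89 and 0.84 across IM, so IM 2 and IM 3 lay below every CT library. Its median log2 fold change of −0.42 was 0.12 without CT 3. Ccl20, a chemokine of the epithelium, measured 4.46, 3.55 and 6.96 CPM across CT and 2.45, 1.34 and 0.372 across IM.

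Epithelial and hormone genes showed no common direction. Of 19 tested hormone genes, 2 were higher and 2 were lower at an unadjusted p under 0.05 (4.83% and 3.11% over all genes). Secretin (Sct) measured 4.43, 6.76 and 11.4 CPM across CT and 1.71, 35.4 and 93.6 across IM, opposite in IM 1, and its direction turned with Hoxd13 as a covariate. Gcg, for proglucagon, measured 18.8, 186 and 52.0 CPM across CT and 18.0, 40.7 and 12.3 across IM. Of 24 colonocyte genes, 0 were higher and 2 lower (again 4.83% and 3.11% over all genes), Car4 and Saa1. Car4, a carbonic anhydrase of surface cells, measured 1604, 1774 and 1595 CPM across CT and 948, 1172 and 898 across IM, all IM libraries below CT. Saa1, an acute phase gene, measured 1699, 2063 and 1337 CPM across CT and 1107, 809 and 143 across IM. Tff3, of the goblet cell, measured 967, 1659 and 1068 CPM across CT and 745, 798 and 276 across IM. Of 20 tight junction genes, 22 stem and cycling genes, 21 cholesterol synthesis genes, 18 unfolded protein response genes and 8 free fatty acid receptor and transporter genes, 0 had an unadjusted p under 0.05 in either direction.

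The median of mitochondrially encoded genes depended on IM 1. Of 13 tested, 3 were higher at an unadjusted p under 0.05 (4.83% over all genes), and the median of 0.43 was −0.18 without IM 1. ND4L, of complex I, measured 12.5, 31.2 and 35.3 CPM across CT and 186, 52.1 and 62.6 across IM, and ATP8, of the ATP synthase, 19.9, 68.7 and 26.2 across CT and 446, 34.3 and 55.6 across IM. ND4L and ATP8 overlap their neighbours on the mitochondrial genome, so their reads are uncertain. The remaining gene of the 3 was highest in IM 3, with all IM libraries above all CT libraries. The list median against CT was 0.85 in IM-HYA. Of 35 nuclear respiratory chain genes, 0 were higher or lower at that threshold and 27 were fitted below 0, with a median of −0.15. Of 15 tested genes of the IGF axis and muscle-acting factors, 2 were higher (Igf1r and Fst) and 3 lower, among them Gdf15 and Igfbp3. The shares over all genes were 4.83% higher and 3.11% lower. Gdf15, a stress hormone, measured 12.3, 8.20 and 7.36 CPM across CT and 6.15, 4.14 and 4.74 across IM. Fst, for the myostatin inhibitor follistatin, measured 0.636, 0.683 and 0.685 CPM across CT and 1.08, 1.12 and 3.07 across IM. Of 20 immediate early genes, 2 were lower (3.11% over all genes), Ier2 and Fos. Ier2 measured 149, 122 and 120 CPM across CT and 78.8, 102 and 84.7 across IM. Fos measured 183, 47.3 and 53.0 CPM across CT and 46.0, 28.8 and 5.53 across IM.

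**Figure D5:**
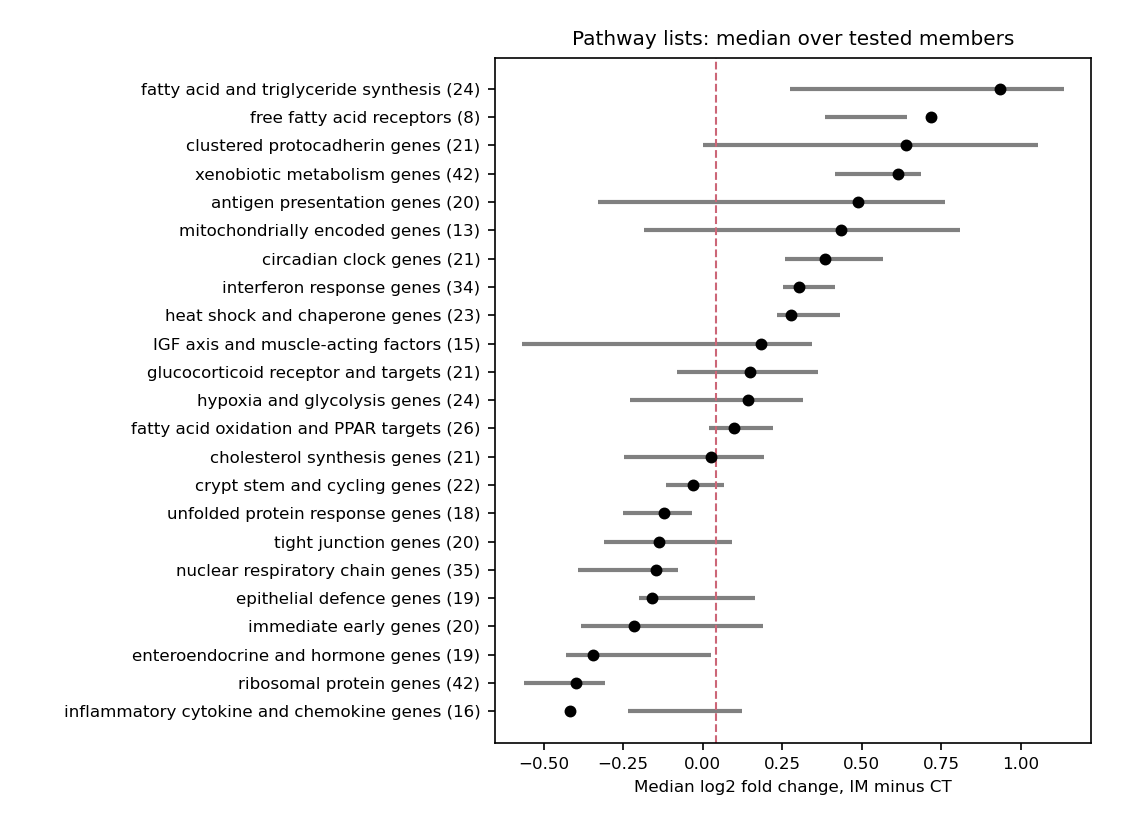
Median log2 fold change, IM minus CT, over the tested members of 23 pathway lists (number tested in parentheses); points are the fit of all libraries, grey bars the range when 1 CT or IM library is left out, and the dashed line the median of all genes. A point can lie outside its bar because the filter admits other members when a library is left out. The bars of the ribosomal protein, nuclear respiratory chain, unfolded protein response and hormone lists stay below that line, and those of the xenobiotic, clock, interferon, heat shock, fatty acid synthesis and free fatty acid receptor lists above it.

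The IM-HYA mice wore the same cast, and since both comparisons use the same CT libraries, only values are set side by side. Hsph1 measured 32.6, 62.1 and 34.5 CPM in IM-HYA, a log2 fold change of 1.42 against CT, and Fkbp5 57.5, 61.9 and 99.6, or 1.12. Foxj3 measured 39.9, 41.9 and 35.7 CPM there, and Gba2 6.90, 9.67 and 7.23. Of the lower genes, Rps14 measured 1064, 1070 and 1213 CPM, Lsr 206, 172 and 209 and Pyy 119, 120 and 119. The IM-HYA libraries lay above all CT libraries for Hsph1, Fkbp5, Foxj3 and Gba2 and below all of them for Rps14, Lsr and Pyy. Thrsp measured 5.73, 11.2 and 3.89 CPM there, Cidea 0.539, 0.678 and 0.314 and Cd3e 0.479, 0.698 and 0.677. For Thrsp, Cidea and Cd3e the IM-HYA and CT libraries overlapped. The list medians against CT in IM-HYA were −0.48 for ribosomal proteins, 0.41 for xenobiotic metabolism, 0.07 for adipocyte markers and −0.25 for T and NK cell markers. In IM they were −0.40, 0.61, 2.43 and 2.74, the last 2 falling to 1.055 and 0.65 without IM 3. The median of the interferon list was 0.30 in IM and 0.07 in IM-HYA. Its mean log2 CPM in IM-HYA was 2.52, 2.70 and 2.68, inside the CT range of 2.46 to 2.73.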

How the data were processed

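Colon RNA was sequenced in 9 libraries, of which the 3 CT and 3 IM libraries are compared here. The submitters' processing notes name StringTie 2.1.3b, HISAT2 2.1.0, Trimmomatic and bcl2fastq 2.20.0, and the mouse genome as GRCm38 or mm10. The authors deposited whole-number read counts per gene, not normalized, for 45777 genes. The deposited FPKM, scaled by the authors for gene length and library total, entered 1 alternative, and the deposited TPM, scaled by the authors to a common sum, entered no test. Not given in the sources used here are the annotation release, strandedness and counting setting. Per-sample columns left unused numbered 0.

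In all, 18414 genes passed edgeR's filterByExpr (minimum count 10, minimum total 15). A single quasi-likelihood model (edgeR 4.0.16, robust) was fitted to all 9 libraries (group as the only term, 6 residual degrees of freedom, R 4.3.3), with Benjamini-Hochberg adjustment over all genes tested and a threshold of 0.05. Mean log2 CPM used a prior count of 2. The median standard error was 0.37 on the log2 scale. Depth limits low genes most, and p-values cover variation among 3 libraries a group.

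The comparison, the 43 gene lists and the named genes were chosen with earlier results of these data known. The rule named genes that passed, up to 15 a direction with the smallest p and no overlap between groups, up to 12 a direction that stayed under p 0.05 with any 1 CT or IM library left out, genes of single libraries, and up to 4 members a list by smallest p. The accessory gland list and the other genes in the text were chosen after their values were seen. Alternatives were RLE and upper quartile scaling, no filter, DESeq2 1.42.0, CPM of at least 1 in 3 libraries, limma-voom (limma 3.58.1), CT and IM libraries alone, a replicate block, libraries left out, covariates for Hoxd13, adipocyte and lymphocyte levels, pancreatic genes and Rn18s-rs5 left out, and limma on log2(FPKM + 1). Leaving out CT 1 and IM 1 together was added after seeing the data. The edgeR fit was tested on simulated counts. Figures used matplotlib 3.10.9 in Python 3.11.15.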

Additional observations from a re-analysis of the deposited data

How the results depend on the processing

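For G530011O06Rik the fitted log2 fold change stayed below 0 in all 21 alternatives and lost its call in 2 of them: −4.42 without CT 2 and IM 3 together (edgeR adjusted p = 0.102) and −4.65 with the adipocyte covariate (edgeR adjusted p = 0.131). In those 2 settings genes called lower, IM vs CT, numbered 0, with 495 and 185 lower at an unadjusted p under 0.05, and DESeq2 gave 13. Genes called higher, IM vs CT, numbered 52 with DESeq2, 1 without CT 1 and IM 1 together, and 0 to 1 with single libraries left out: Snrpn without CT 1 and the immunoglobulin gene Ighm without IM 2. The cause was not tested.

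The replicate numbers matched the libraries only in part: deviations of same-numbered libraries correlated at 0.26, −0.18 and 0.21. IM 1 correlated best with CT 1 and IM 3 with CT 3, but IM 2 also correlated best with CT 3. With the replicate block edgeR called 0 genes higher and 1 lower, with 625 and 591 at an unadjusted p under 0.05. Counts at that threshold fell to 447 higher and 252 lower with CT and IM libraries alone, to 370 higher with limma-voom and to 406 higher with the lymphocyte covariate. The Hoxd13 covariate gave 1160 lower. Limma on log2(FPKM + 1) moved the median of all genes from 0.04 to 0.32 on the log2 scale and gave 798 higher and 31 lower.

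Of 92 tested genes named in the text, which leave out the Y-linked gene Ddx3y given only as a check of the libraries, the log2 fold change of 19 turned in at least 1 alternative and that of 73 in none. Cd79a log2 fold change, IM vs CT, ran from −0.17 without IM 3 to 2.98 without IM 2, and was −0.28 without CT 2 and IM 3 together, −2.01 with the adipocyte covariate and −0.12 with the lymphocyte covariate. With the adipocyte covariate Ciita was −0.997, Hba-a1 −0.63, Hba-a2 −0.64, Scd1 −0.16, Fasn −0.11, Cd3g −0.499, Coro1a −1.66, Hccs 0.19, Hoxb13 0.61, Hoxd13 4.38, Pbsn 5.08 and Tgm4 7.19. Sct was −0.55 with the Hoxd13 covariate, Muc2 −0.34, Erdr1 −0.053 and Mid1 0.068, and ATP8 −0.093 without CT 1 and IM 1 together. Without CT 2 and IM 3 together Cd3g was −0.046, Coro1a −0.59, Ctrb1 1.38 and Mid1 0.22, and limma on log2(FPKM + 1) gave Hccs 0.16 and Mid1 0.22. With 1 library left out Ctrb1 ran from −10.96 to 5.91, the latter without CT 2, and Hoxd13 from −7.25 to 0.81, the latter without CT 1. Pbsn ran from −15.35 to 3.83 and Tgm4 from −15.18 to 5.27, both highest without CT 1, Coro1a from −0.47 without IM 3 to 2.88, Erdr1 from −0.47 to 0.41 and Mid1 from −0.24 to 0.084. The list medians turned too, from −0.40 to 1.10 for distal Hox genes without CT 1 and from −6.84 to 5.07 for pancreatic genes without CT 2.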
